A study of Mus musculus with 6 samples.

Results

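The 30 genes described here carry glucose carbon from the plasma membrane to the entry of pyruvate into mitochondria. They are 2 glucose transporters, the enzymes of glycolysis with the makers of its main allosteric activator, 2 lactate dehydrogenase genes, and 3 pyruvate dehydrogenase subunits with their 4 inhibitory kinases. They were matched by symbol, and all 30 were found in a table of 55414 gene IDs. RNA-seq libraries came from AY-mICC, a mouse line whose abbreviation the labels do not spell out; the series title concerns intrahepatic cholangiocarcinoma, a cancer of bile ducts inside the liver. The shCopa group (n = 3) is labelled as a knockdown of Copa, which encodes the alpha subunit of the COPI coat of Golgi-to-ER vesicles, and the shCon group (n = 3) as its control. Both groups grew in serum-supplemented DMEM with no other treatment, and the labels give no hairpin sequence, time after knockdown or glucose level.

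Glucose enters cells through facilitative transporters and is trapped by hexokinase as glucose 6-phosphate. Phosphofructokinase is the main committed step and is switched on by a fructose bisphosphate that the bifunctional PFKFB enzymes make and break down. The lower steps turn triose phosphates into pyruvate, which either becomes lactate or enters mitochondria and is turned into acetyl-CoA by the pyruvate dehydrogenase (PDH) complex. PDH kinases phosphorylate and switch off that complex. Tumour cells are known for high glucose uptake and lactate output, and the hypoxia-inducible factors and MYC are textbook activators of many of these genes.

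Levels are given as counts scaled to library size (CPM) after TMM scaling, which corrects for library composition. Library totals ran from 19634938 to 24546204 counts, so that 3 counts, the limit that a count of 0 allows, correspond to 0.122 to 0.153 CPM before scaling. Copa itself had 186, 182 and 187 CPM in shCopa 1 to 3, against 419.7, 517 and 527 CPM in shCon 1 to 3. Its fitted log2 fold change of -1.40 ± 0.11 (SE; edgeR adjusted p = 0.000149) left 37.9% of the control level. The shCon 1 library stood apart from the other controls. Its log2 CPM correlated with shCon 2 and shCon 3 at r = 0.973 and 0.972 across genes, against 0.990 between shCon 2 and shCon 3 and 0.989 to 0.991 among the shCopa libraries. Fold changes without shCon 1 are therefore given beside the members it moves. At an edgeR adjusted p under 0.05, 28.3% of all genes tested were higher and 27.0% lower in that fit. With all libraries these shares were 18.2% and 18.4%. Since shCon 1 was singled out from these same data, a call gained by leaving it out is a description only. Of 8 bile duct markers, 4 were lower in shCopa, with summed levels of 4020 to 4237 CPM in shCopa and 5094 to 6089 CPM in shCon, and Epcam stayed under 1 CPM in all libraries. Markers of 5 hepatocyte genes summed to 22.8 to 24.2 CPM in shCopa and 8.37 to 13.3 CPM in shCon, most of it Alb, while Cyp3a11 was at 0 in all libraries. The 4 leukocyte markers Ptprc, Cd68, Adgre1 and Cd3e summed to 15.0 to 16.4 CPM in shCopa and 12.9 to 14.3 CPM in shCon, most of it Cd68, which overlapped between groups. The 6 fibroblast markers summed to 168 to 182 CPM in shCopa and 184 to 223 CPM in shCon, nearly all of it Dcn, which did not pass, while Pdgfrb was lower. The 3 endothelial markers summed to 1.51 to 3.34 CPM in shCopa and 0.0411 to 0.172 CPM in shCon. Ptprc, a marker of all leukocytes, had 0.930, 1.08 and 1.26 CPM in shCopa 1 to 3, against 0, 0.0429 and 0.0411 CPM in shCon 1 to 3, with Adgre1 and Cd3e each at 0 to 0.0885 CPM. The endothelial receptor gene Kdr had 1.15, 1.82 and 2.63 CPM in shCopa 1 to 3, against 0.139, 0.0429 and 0.0411 CPM in shCon 1 to 3. Pecam1 went the same way, with 0.310, 0.303 and 0.708 CPM in shCopa 1 to 3, against 0, 0.129 and 0 CPM in shCon 1 to 3. Cdh5 was at 0 to 0.0864 CPM. The part of such differences in the results was not tested, and in bulk RNA fewer cells of a type and less RNA per cell cannot be told apart.

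Copa knockdown went with lower RNA for the phosphofructokinase subunit Pfkl, the minor aldolase Aldoc and the PDH kinases Pdk1 and Pdk2, and with higher RNA for the inducible hexokinase Hk2. All 30 genes passed the filter on low counts; 29 of them exceeded it in every library, while Slc2a3 did so in the shCopa libraries alone. At an adjusted p under 0.05 (edgeR quasi-likelihood F test, Benjamini-Hochberg over 14807 genes), 3 of 30 were higher in shCopa, beside 18.2% of all genes tested, and 12 of 30 were lower, beside 18.4%. Called in either direction were 15 of 30, beside 36.5% of all genes, and the other 15 did not pass. With upper-quartile scaling, or with library totals alone, the split was 4 higher and 9 lower. Of all genes, 19.5% were then higher and 17.3% lower with the first, and 20.3% and 16.4% with the second. The CPM of the groups did not overlap for 23 of 30 genes, beside 54.0% of all genes tested. The median log2 fold change was -0.29 over the 30 genes and -0.01 over all genes. Of the 15 calls, 7 stood under each of 16 other ways of fitting: Hk2 (higher) and Gpi1, Pfkl, Pfkfb3, Aldoc, Pdk1 and Pdk2 (lower).

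**Figure D1:**
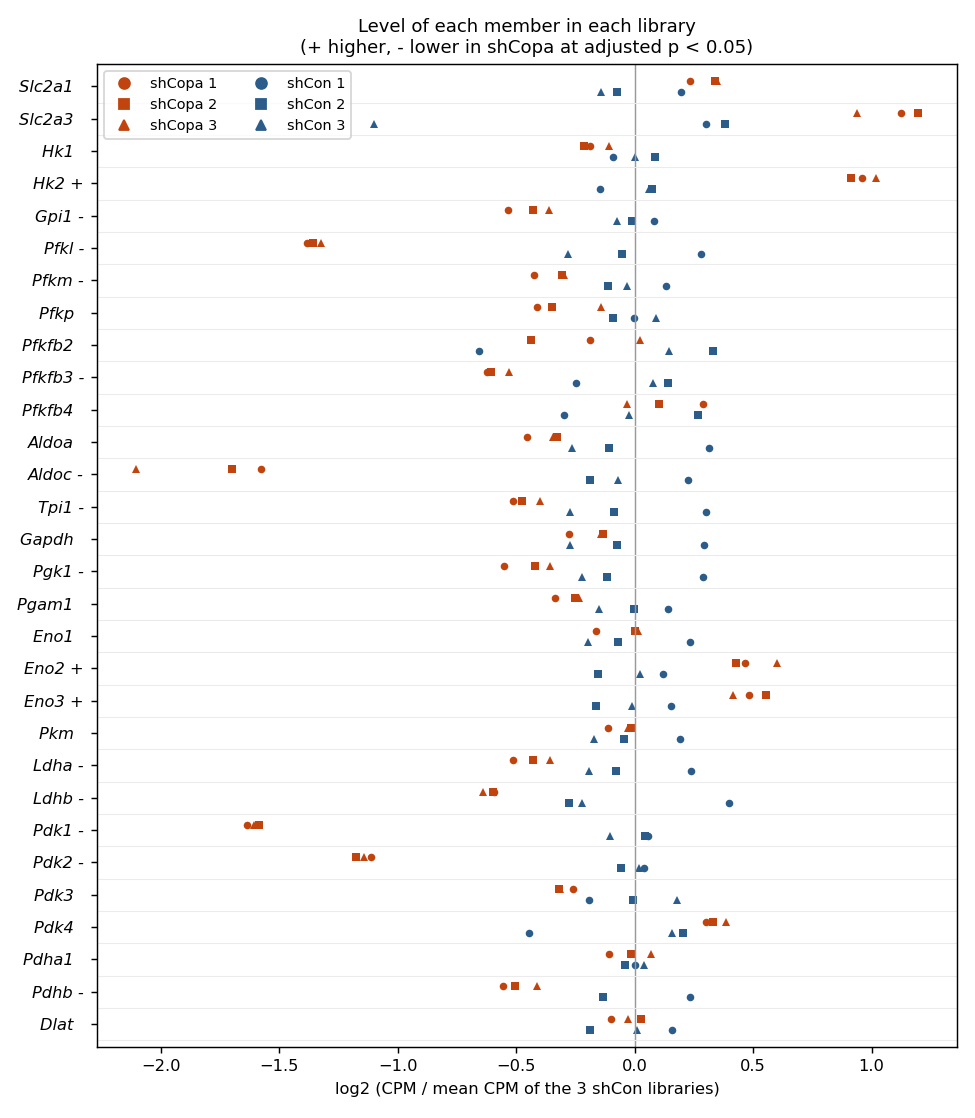
Level of each of the 30 genes in each library, as log2 of its CPM over the mean CPM of the 3 shCon libraries, with shCopa libraries in red, shCon libraries in blue and a marker shape for each replicate number. Aldoc, Pdk1, Pfkl and Pdk2 lie far to the left in all shCopa libraries and Hk2 far to the right, while Gapdh, Eno1, Pkm, Pdha1 and Dlat overlap between groups.

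The distance between groups differed from gene to gene, and shCon 1 often supplied the highest control value. Among 471 other genes with a mean of 300 to 1000 CPM, 19.3% were lower in shCopa; of the 6 members in that range, 4 were lower. The 3 members over 1000 CPM, Gapdh, Pkm and Eno1, did not pass, while 29.9% of 77 other genes at that level were lower. The plot of fitted changes gives every member with all libraries and without shCon 1.

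**Figure D2:**
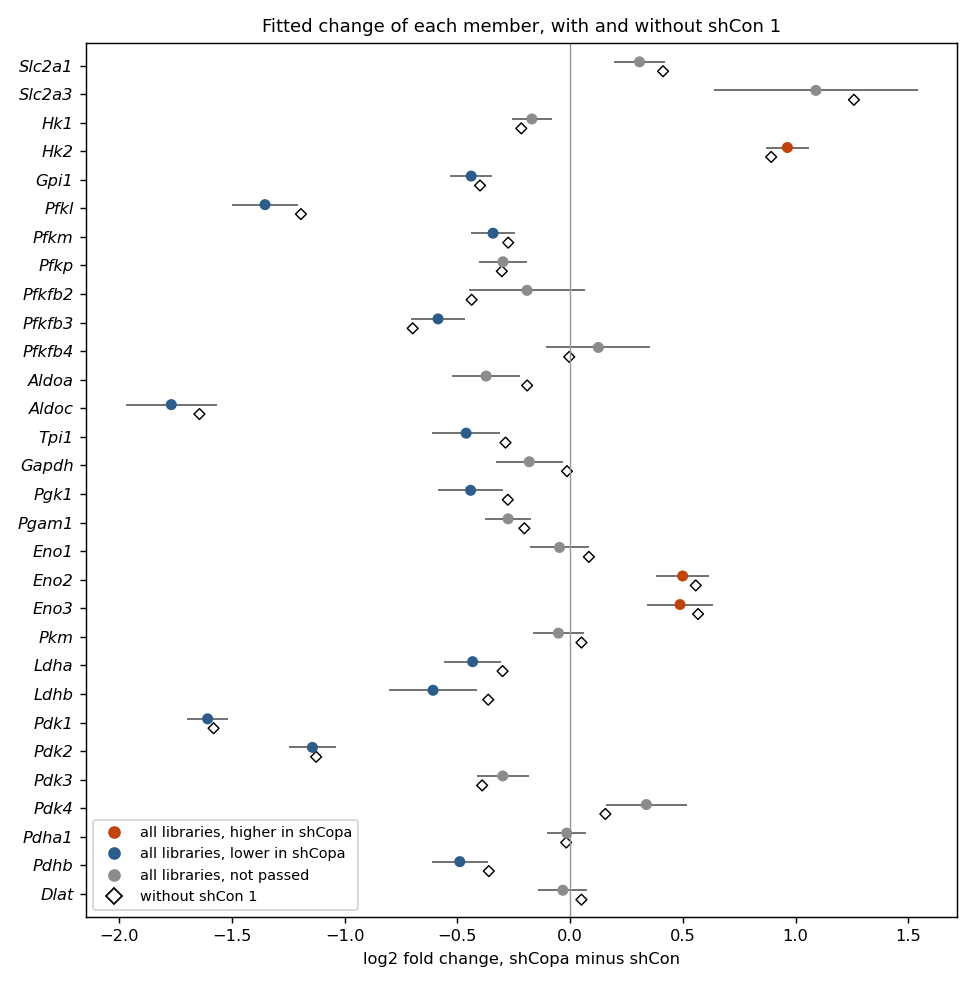
Fitted log2 fold change (shCopa minus shCon) of each of the 30 genes, as a filled point with a bar of 1 standard error for all 6 libraries and as an open diamond for the fit without shCon 1. Colour shows the call with all libraries. The lowest values are Aldoc at -1.77, Pdk1 at -1.61 and Pfkl at -1.35, and the genes from Aldoa to Pkm move toward 0 or past it without shCon 1, apart from Eno2 and Eno3.

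The windows upstream of the 5 called members with the largest changes, chosen by their values, are shown because the hypoxia-inducible factors act through a short core motif, ACGTG or GCGTG, and MYC and other E-box factors through CACGTG, which contains ACGTG. Each line gives the 250 bases before 1 annotated start in the mouse GRCm38.p6 build from RefSeq, 5′ to 3′ on the gene's strand. Either core motif, on either strand, is in capitals. Aldoc, Pdk1 and Pdk2 each had 2 windows, of which 1 is printed.
Hk2, chr6:82774455-82774704, minus strand: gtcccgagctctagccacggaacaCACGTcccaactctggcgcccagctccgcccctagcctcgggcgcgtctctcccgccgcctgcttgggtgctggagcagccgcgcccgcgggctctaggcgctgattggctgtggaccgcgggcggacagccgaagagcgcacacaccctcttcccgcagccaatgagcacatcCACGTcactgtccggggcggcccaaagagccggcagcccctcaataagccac
Pfkl, chr10:78009808-78010057, minus strand: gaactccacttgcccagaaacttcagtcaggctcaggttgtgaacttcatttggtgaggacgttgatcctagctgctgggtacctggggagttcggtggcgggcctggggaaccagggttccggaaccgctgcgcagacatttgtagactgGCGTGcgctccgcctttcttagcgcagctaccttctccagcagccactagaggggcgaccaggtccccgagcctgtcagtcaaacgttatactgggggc
Aldoc, chr11:78323948-78324197, plus strand: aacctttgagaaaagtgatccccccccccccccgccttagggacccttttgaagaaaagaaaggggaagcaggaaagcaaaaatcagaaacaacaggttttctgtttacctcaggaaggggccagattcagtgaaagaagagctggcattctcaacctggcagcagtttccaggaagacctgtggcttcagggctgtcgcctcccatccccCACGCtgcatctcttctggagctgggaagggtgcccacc
Pdk1, chr2:71872974-71873223, plus strand: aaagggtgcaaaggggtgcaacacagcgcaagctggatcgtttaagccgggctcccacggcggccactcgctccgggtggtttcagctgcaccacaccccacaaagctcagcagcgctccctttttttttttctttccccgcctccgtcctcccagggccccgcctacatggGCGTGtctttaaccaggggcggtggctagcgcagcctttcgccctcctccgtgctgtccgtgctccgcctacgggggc
Pdk2, chr11:95041372-95041621, minus strand: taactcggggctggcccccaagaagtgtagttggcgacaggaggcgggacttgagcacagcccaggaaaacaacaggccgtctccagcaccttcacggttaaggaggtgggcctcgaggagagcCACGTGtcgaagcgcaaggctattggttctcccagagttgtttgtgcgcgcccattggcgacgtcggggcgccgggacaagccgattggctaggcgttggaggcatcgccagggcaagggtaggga
The capitals in Pdk2 mark a CACGTG. Promoters were found for 29 of the 30 genes, in 45 windows, and Slc2a3 had none in the table. The core motif was present in 35 of those 45 windows (77.8%), beside 12679 of 32851 windows (38.6%) over all genes. By gene, 25 of 29 held it, namely 10 of the lower members, 2 of the higher and 13 of those that did not pass, so that it occurred in members of every outcome. A gene with several windows has more chances to hold it, and no share by gene over all genes is given here. CACGTG was present in 5 windows (11.1%), beside 6.02% of all windows. A match is a description of the letters and shows no binding.

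At the glucose uptake step, Slc2a1, which encodes the widespread transporter GLUT1, was measured at 63.8, 68.8 and 69.2 CPM in shCopa 1 to 3, against 62.2, 51.6 and 49.3 CPM in shCon 1 to 3. The 3 shCopa libraries were all above the controls, but shCon 1 came close, and the log2 fold change of 0.31 ± 0.11 (SE) did not pass (edgeR adjusted p = 0.0652). Without shCon 1 it was 0.41 and passed (edgeR adjusted p = 3.99e-05). Slc2a3 encodes the high-affinity transporter GLUT3 and was nearly silent, with 13, 14 and 10 counts in shCopa 1 to 3, against 7, 8 and 3 counts in shCon 1 to 3. Its groups did not overlap, but its log2 fold change of 1.09 ± 0.45 did not pass either (edgeR adjusted p = 0.0976).

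The 2 hexokinase members gave different values. Hk2, the insulin- and hypoxia-inducible isozyme that binds mitochondria, had 121, 117 and 126 CPM in shCopa 1 to 3, against 56.0, 65.3 and 64.7 CPM in shCon 1 to 3. Every shCopa library lay far above every control, and Hk2 was 1.95-fold higher, with a log2 fold change of 0.96 ± 0.10 (SE; edgeR adjusted p = 0.000357). Hk1, the constitutive isozyme, had 121, 119 and 128 CPM in shCopa 1 to 3, against 129.8, 147 and 138 CPM in shCon 1 to 3. Its shCopa values were all slightly below the controls, and the log2 fold change of -0.17 ± 0.09 did not pass (edgeR adjusted p = 0.172). Without shCon 1, Hk1 was called lower at -0.22 (edgeR adjusted p = 0.00401).

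Gpi1, which converts glucose 6-phosphate to fructose 6-phosphate, was lower. It had 394, 424 and 444 CPM in shCopa 1 to 3, against 603, 566 and 541 CPM in shCon 1 to 3. The groups did not overlap, and the log2 fold change of -0.44 ± 0.09 (edgeR adjusted p = 0.00831) left 73.8% of control.

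Phosphofructokinase is built from liver-type, muscle-type and platelet-type subunits, and the liver-type gene fell furthest of them by point estimate. Pfkl had 71.0, 72.3 and 74.0 CPM in shCopa 1 to 3, against 225, 178 and 152 CPM in shCon 1 to 3. The shCopa libraries were nearly equal to each other while the controls ranged widely with shCon 1 on top, yet even the lowest control was above all of them. The log2 fold change was -1.35 ± 0.15 (SE; edgeR adjusted p = 0.000514), which is 39.1% of control, and it was -1.19 without shCon 1. Pfkm, the muscle-type subunit, had 52.6, 57.0 and 57.4 CPM in shCopa 1 to 3, against 77.3, 65.3 and 69.0 CPM in shCon 1 to 3. All shCopa values were below the controls, and it was called lower with a log2 fold change of -0.34 ± 0.10 (edgeR adjusted p = 0.0292), a call that each fit without 1 of the shCopa libraries lost. Senp1, a gene on the opposite strand that overlaps Pfkm, held counts equal to 55.0% to 95.3% of those of Pfkm, and the strand setting of the counting is not given in the sources used here. Pfkp, the platelet-type subunit, had 62.8, 65.6 and 75.7 CPM in shCopa 1 to 3, against 83.6, 78.4 and 88.9 CPM in shCon 1 to 3. The groups were separate, but the change of -0.30 ± 0.10 on the log2 scale did not pass (edgeR adjusted p = 0.0592). Pfkp overlaps Pitrm1 on the opposite strand in the same way. Without shCon 1 Pfkp was lower at -0.30 (edgeR adjusted p = 0.00599).

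Among the PFKFB enzymes, Pfkfb3, whose product strongly favours making the activator of phosphofructokinase, was the most abundant and was lower. It had 49.5, 50.1 and 52.7 CPM in shCopa 1 to 3, against 64.2, 84.0 and 80.3 CPM in shCon 1 to 3. Here shCon 1 was the lowest control, and all shCopa libraries were below it. The log2 fold change was -0.59 ± 0.12 (edgeR adjusted p = 0.00729), at 66.6% of control. Pfkfb2, the isozyme best known from heart, spread from 9.68 to 13.3 CPM in shCopa and from 8.31 to 16.5 CPM in shCon. The groups overlapped and it did not pass (-0.19 ± 0.26 on the log2 scale, edgeR adjusted p = 0.596). Without shCon 1, Pfkfb2 was called lower at -0.44 (edgeR adjusted p = 0.00932). Pfkfb2 is overlapped by Yod1 on the opposite strand, with 77.3% to 126% of its counts. Gm29427 on the same strand had 330% to 516% of them, so the level of Pfkfb2 is uncertain. Pfkfb4, known from testis and from hypoxic tumour cells, was low, with 2.66, 2.33 and 2.12 CPM in the shCopa libraries and 1.77, 2.62 and 2.14 CPM in the shCon libraries. These overlap, and it did not pass (0.13 ± 0.23 on the log2 scale, edgeR adjusted p = 0.703).

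Of the 2 aldolase members, the minor one was clearly lower and the main one did not pass. Aldoa, the main aldolase outside normal adult liver, had 731, 798 and 789 CPM in shCopa 1 to 3, against 1242, 928 and 832 CPM in shCon 1 to 3. The gap between groups was small beside the spread of the controls, and the log2 fold change of -0.37 ± 0.15 did not pass (edgeR adjusted p = 0.0948). Without shCon 1 it was -0.19 and passed (edgeR adjusted p = 0.0107). Aldoc, the brain-type aldolase, had 2.92, 2.68 and 2.02 CPM in shCopa 1 to 3, against 10.2, 7.64 and 8.30 CPM in shCon 1 to 3. The highest shCopa value was well under the lowest control, and the log2 fold change of -1.77 ± 0.20 (SE; edgeR adjusted p = 0.000635) left 29.3% of control.

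The triose steps held some of the most abundant RNAs of the pathway, and here shCon 1 was highest of all 6 libraries for each of Tpi1, Gapdh, Pgk1 and Pgam1. Tpi1, which interconverts the 2 triose phosphates, had 397, 407 and 429 CPM in shCopa 1 to 3, against 697, 532 and 467 CPM in shCon 1 to 3. It was lower, with a fitted log2 fold change of -0.46 ± 0.15 (edgeR adjusted p = 0.0464). Pgk1, an ATP-making step, had 512, 561 and 587 CPM in shCopa 1 to 3, against 918, 694 and 645 CPM in shCon 1 to 3. It was lower too, at -0.44 ± 0.15 on the log2 scale (edgeR adjusted p = 0.0486). Both calls were close to the threshold. Without shCon 1 the log2 fold changes shrank to -0.29 for Tpi1 and -0.28 for Pgk1 while still passing, and neither passed without shCon 2 or in a fit without 1 of the shCopa libraries. Pgam1, the phosphoglycerate mutase, had 454, 482 and 487 CPM in shCopa 1 to 3, against 632, 573 and 517 CPM in shCon 1 to 3. The groups did not overlap, but it did not pass (-0.27 ± 0.10 on the log2 scale, edgeR adjusted p = 0.0689). It passed without shCon 1 at -0.20 (edgeR adjusted p = 0.00591).

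Gapdh, the NADH-making dehydrogenase of glycolysis and a common reference gene, had 1550.1, 1712 and 1701 CPM in shCopa 1 to 3, against 2296, 1781 and 1552 CPM in shCon 1 to 3. Its groups overlapped, the log2 fold change of -0.18 ± 0.15 did not pass (edgeR adjusted p = 0.376), and without shCon 1 it was -0.01. The mouse genome holds many processed copies of this gene, and 77 annotated genes matched its transcripts at 95% identity or more over at least 300 bases. Of these, 61 had counts, and they held 30.4% to 32.3% of the summed counts in each library. Gapdh with its copies had 2260, 2493 and 2487 CPM in shCopa 1 to 3, against 3391, 2560 and 2231 CPM in shCon 1 to 3. The log2 ratio of the group means was -0.18, as for Gapdh alone. The authors' counting could have split reads among these copies, so the level of Gapdh alone is uncertain.

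Of the 3 enolase members, the 2 minor ones were higher and the main one did not pass. Eno1, the ubiquitous enolase, had 934, 1046 and 1054 CPM in shCopa 1 to 3, against 1229.8, 994 and 911 CPM in shCon 1 to 3. The groups overlapped and it did not pass (-0.05 ± 0.13 on the log2 scale, edgeR adjusted p = 0.802). Eno2, the neuronal enolase, had 19.7, 19.2 and 21.6 CPM in shCopa 1 to 3, against 15.5, 12.8 and 14.5 CPM in shCon 1 to 3. All shCopa values were higher and it passed (0.50 ± 0.12 on the log2 scale, edgeR adjusted p = 0.0140). Eno3, the muscle enolase, had 7.53, 7.91 and 7.18 CPM in shCopa 1 to 3, against 5.99, 4.81 and 5.34 CPM in shCon 1 to 3. It was also called higher (0.49 ± 0.15 on the log2 scale, edgeR adjusted p = 0.0356). The Eno2 call was lost without shCon 2 or shCopa 3, and the Eno3 call in each fit that left out a library other than shCon 1. On the TPM scale, in which counts are divided by transcript length, the summed enolase level was 1347, 1470.3 and 1466 TPM in shCopa 1 to 3, against 1447, 1375 and 1274 TPM in shCon 1 to 3. Eno1 made up most of it, and the groups overlapped.

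Pkm, the pyruvate kinase gene that yields both the M1 and M2 forms by splicing, averaged 1834 ± 41.6 TPM in shCopa and 1775 ± 80.9 TPM in shCon per length (SD, n = 3 each). In CPM it had 1528, 1635 and 1624 CPM in the shCopa libraries and 1887, 1605 and 1469.9 CPM in the shCon libraries. The groups overlapped and Pkm did not pass (-0.05 ± 0.11 on the log2 scale, edgeR adjusted p = 0.746). Gene-level counts do not separate its M1 and M2 forms.

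**Figure D3:**
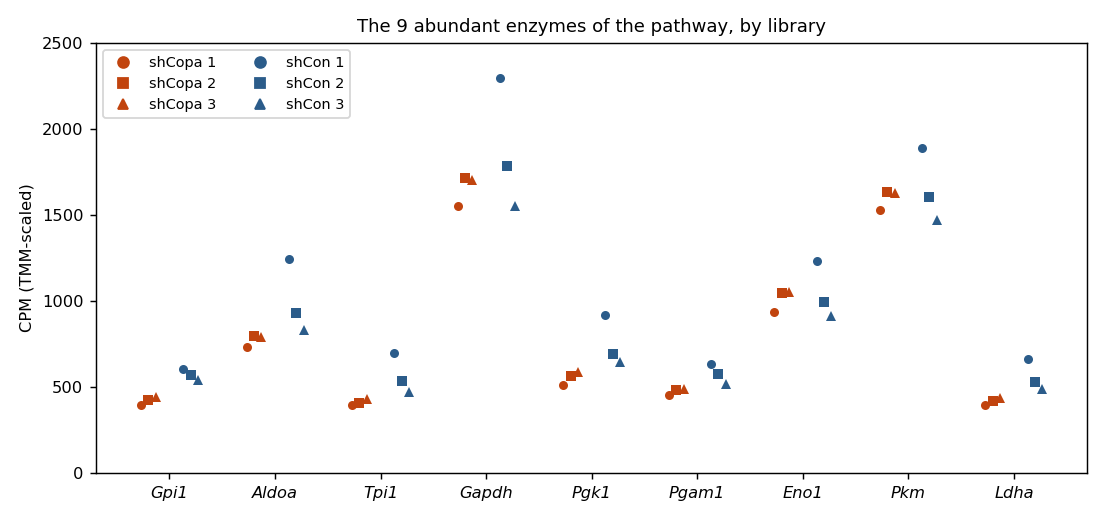
TMM-scaled CPM of the 9 most abundant glycolytic enzymes in each library, shCopa in red and shCon in blue, with a marker shape for each replicate number. The shCon 1 point is the highest of the 6 for all 9 genes; for Gapdh, Eno1 and Pkm the other controls lie within or close to the range of the shCopa libraries.

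Both lactate dehydrogenase genes were lower. Ldha, whose product favours making lactate and regenerating NAD, had 392, 416 and 437 CPM in shCopa 1 to 3, against 661, 529 and 489.7 CPM in shCon 1 to 3. There was no overlap, and the change was -0.43 ± 0.13 on the log2 scale (edgeR adjusted p = 0.0332). Ldhb, the heart-type subunit, had 10.4, 10.3 and 10.0 CPM in shCopa 1 to 3, against 20.6, 12.9 and 13.4 CPM in shCon 1 to 3. The shCopa values were nearly equal, and shCon 1 was far above the other controls (-0.61 ± 0.20 on the log2 scale, edgeR adjusted p = 0.0446). Without shCon 1 the log2 fold changes were -0.30 for Ldha and -0.36 for Ldhb, and both still passed. Neither passed in a fit without 1 of the shCopa libraries, and the Ldha call was also lost without shCon 2 (edgeR adjusted p = 0.0555). Of the lactate exporters outside the 30 genes, Slc16a3, which encodes MCT4, had 3.94, 4.28 and 3.89 CPM in shCopa 1 to 3, against 16.4, 14.8 and 13.2 CPM in shCon 1 to 3. It was lower (-1.87 ± 0.14 on the log2 scale, edgeR adjusted p = 0.000129). Its chaperone Bsg had 588, 611 and 578 CPM in shCopa 1 to 3, against 1554, 936 and 875 CPM in shCon 1 to 3. It was also lower (-0.92 ± 0.21 on the log2 scale, edgeR adjusted p = 0.0131). That call was lost without shCopa 1 or shCopa 3, and the change was -0.62 without shCon 1. Slc16a1, which encodes MCT1, did not pass at -0.24 ± 0.13 (edgeR adjusted p = 0.175).

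At the entry of pyruvate into mitochondria, 2 of the 4 PDH kinases were lower by more than 2-fold. Pdk1, a hypoxia-inducible kinase, had 21.2, 22.0 and 21.6 CPM in shCopa 1 to 3, against 68.5, 67.8 and 61.1 CPM in shCon 1 to 3. Both groups were tight and far apart, shCon 1 was in step with the other controls, and the log2 fold change of -1.61 ± 0.09 (SE; edgeR adjusted p = 5.22e-05) left 32.8% of control. Pdk2, the widely expressed kinase whose upstream window holds the printed CACGTG, had 9.47, 9.08 and 9.31 CPM in shCopa 1 to 3, against 21.1, 19.7 and 20.8 CPM in shCon 1 to 3. The groups again did not overlap (-1.14 ± 0.10 on the log2 scale, edgeR adjusted p = 0.000258; 45.3% of control). Without shCon 1 the changes were -1.58 for Pdk1 and -1.13 for Pdk2. Pdk3 had 30.8, 29.5 and 29.6 CPM in shCopa 1 to 3, against 32.2, 36.6 and 41.7 CPM in shCon 1 to 3. The groups were close but separate, and it did not pass (-0.30 ± 0.11 on the log2 scale, edgeR adjusted p = 0.0785). Without shCon 1 it was lower at -0.39 (edgeR adjusted p = 0.000397). Pdk4, the kinase induced by fasting and fatty acids, had 15.1, 15.3 and 15.9 CPM in shCopa 1 to 3, against 8.96, 14.0 and 13.6 CPM in shCon 1 to 3. It did not pass (0.34 ± 0.18 on the log2 scale, edgeR adjusted p = 0.182), and without shCon 1, its lowest control, the change was 0.16.

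The fitted changes of the PDH subunits were smaller than those of Pdk1 and Pdk2, and only Pdhb passed. Pdhb, the beta subunit of the decarboxylase, had 95.4, 98.9 and 106 CPM in shCopa 1 to 3, against 165, 128 and 128 CPM in shCon 1 to 3. It was lower (-0.49 ± 0.12 on the log2 scale, edgeR adjusted p = 0.0180), a call lost in each fit without 1 of the shCopa libraries. Pdha1, the alpha subunit that the kinases phosphorylate, had 276, 294 and 312 CPM in the shCopa libraries and 298, 289 and 305 CPM in the shCon libraries. The groups overlapped (-0.02 ± 0.09 on the log2 scale, edgeR adjusted p = 0.907). Dlat, the acetyltransferase core, had 71.0, 77.6 and 74.6 CPM in the shCopa libraries and 85.0, 66.9 and 76.6 CPM in the shCon libraries. They overlapped as well (-0.03 ± 0.11 on the log2 scale, edgeR adjusted p = 0.840). The sign of the Pdha1 and Dlat changes was positive with library totals in place of TMM scaling.

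Shares of isozymes within their families were set on the TPM scale, which divides by transcript length, and compared by exact two-sided permutation tests, for which 3 against 3 libraries cannot give a p below 0.1. Of the summed RNA of Hk1 and Hk2, Hk2 made up 43.5, 43.2 and 43.2% in shCopa 1 to 3, against 25.1, 25.7 and 26.6% in shCon 1 to 3. The 3 shCopa shares were within 1 point of each other and the groups did not overlap (exact p = 0.1). The sum of Hk1 and Hk2 was 143, 137 and 145 TPM in shCopa 1 to 3, against 95.1, 127 and 123 TPM in shCon 1 to 3, higher in each shCopa library (exact p = 0.1). The sum of the 3 phosphofructokinase genes was 127, 130.1 and 134 TPM in shCopa 1 to 3, against 227, 219 and 209 TPM in shCon 1 to 3, lower in each shCopa library (exact p = 0.1). The Pfkl share averaged 41.7 ± 0.930% in shCopa and 58.9 ± 4.04% in shCon (SD, n = 3 each). The Pfkm share was larger in shCopa, at 41.5 ± 0.745% in shCopa and 29.4 ± 2.20% in shCon. The Pfkp share was larger too, at 16.8 ± 1.01% in shCopa and 11.7 ± 1.86% in shCon. Neither Pfkm nor Pfkp was higher in mean level. Pfkm averaged 54.0 TPM in shCopa and 64.1 TPM in shCon, and Pfkp 21.9 TPM in shCopa and 25.3 TPM in shCon. The level of a share depends on the transcript length used, here the longest, while each difference named here kept its direction with the other lengths. With the mean length, Hk2 came to 35.2% in shCopa and 19.8% in shCon, Pfkl to 48.7% and 65.7%, Pfkm to 23.4% and 15.8%, and Pfkp to 27.9% and 18.5%. Pfkp then exceeded Pfkm in both groups. With the coding length, Pfkl came to 35.2% in shCopa and 52.3% in shCon, Pfkm to 35.0% and 26.1%, and Pfkp to 29.7% and 21.6%.

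Among the PDH kinases, the share of Pdk3 was larger in every shCopa library than in any control. The mean level of Pdk3 itself was not higher, at 39.6 ± 1.6 TPM in shCopa and 46.1 ± 9.7 TPM in shCon (SD, n = 3 each). Of the kinase RNA, Pdk3 made up 53.5, 52.4 and 52.1% in shCopa 1 to 3, against 37.7, 40.1 and 44.2% in shCon 1 to 3, with no overlap (exact p = 0.1). It was the largest share in both groups with the longest transcript, but with the mean length Pdk3 came to 47.2% in shCopa and 34.7% in shCon, and Pdk1 to 19.6% and 35.9%. With the longest transcript, Pdk1 averaged 15.5 ± 0.424% in shCopa and 29.8 ± 3.18% in shCon, and Pdk2 15.4 ± 0.180% in shCopa and 21.4 ± 1.59% in shCon. Pdk4 averaged 16.5 ± 0.562% in shCopa and 8.15 ± 1.57% in shCon, without its own level passing the edgeR test. Summed kinase RNA was 77.4, 74.2 and 74.0 TPM in shCopa 1 to 3, against 94.9, 119 and 124 TPM in shCon 1 to 3, so that all shCopa libraries were below all controls (exact p = 0.1). Summed PDH subunit RNA was 441, 457 and 475 TPM in shCopa 1 to 3, against 458, 474 and 501 TPM in shCon 1 to 3, and the groups overlapped. Ldha was nearly all of the sum of Ldha and Ldhb, at 96.7 ± 0.228% in shCopa and 96.3 ± 0.440% in shCon, and the groups overlapped (exact p = 0.3).

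**Figure D4:**
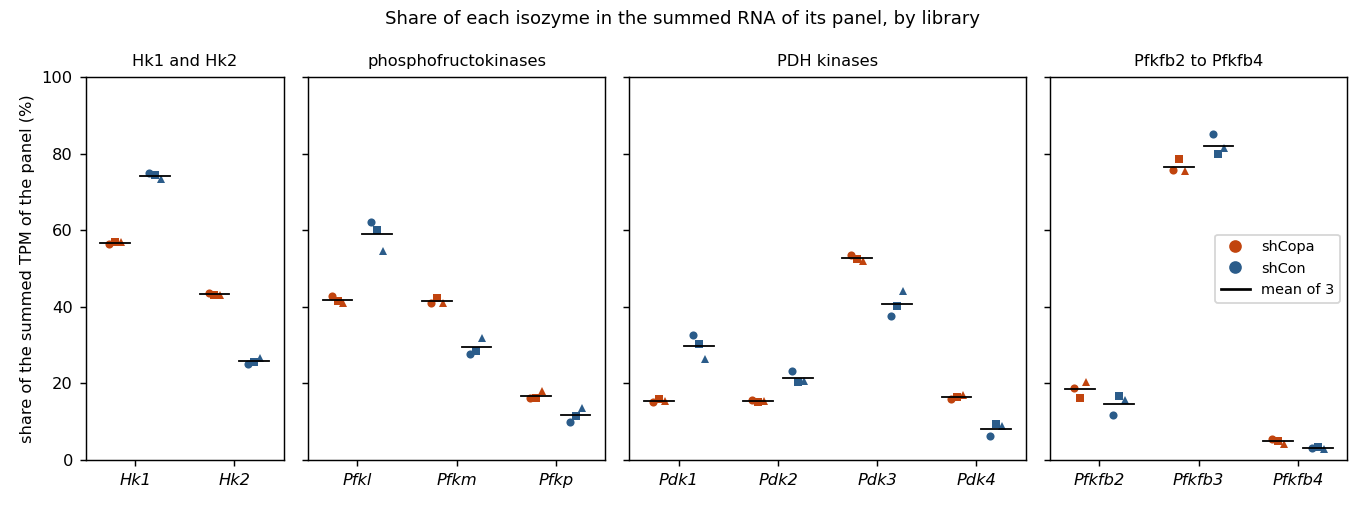
Share of each isozyme in the summed TPM of the genes of its panel (longest transcript), in percent, for Hk1 and Hk2, the phosphofructokinases, the PDH kinases and Pfkfb2 to Pfkfb4, with each library as a point (shCopa red, to the left of shCon, blue) and the mean of 3 as a line. Hk2, Pfkm, Pfkp, Pdk3 and Pdk4 take a larger share in shCopa, and Hk1, Pfkl, Pdk1 and Pdk2 a smaller one, with no overlap between groups.

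The summed level of the 30 genes was 8008, 8630 and 8761 CPM in shCopa 1 to 3, against 11605, 9551 and 8772 CPM in shCon 1 to 3. The highest shCopa library and the lowest control were almost equal. Pdk1 and Aldoc, which had the largest fitted changes of the 30, were among the less abundant members per length. Pdk1 averaged 11.6 ± 0.160 TPM in shCopa and 33.3 ± 2.57 TPM in shCon, and Aldoc averaged 2.56 ± 0.505 TPM in shCopa and 8.15 ± 0.516 TPM in shCon (SD, n = 3 each). The 9 abundant enzymes made up most of the sum.

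Genes of neighbouring routes were taken from lists, and their calls with all libraries are counted beside the same backgrounds of 18.2% higher and 18.4% lower. Fits that left out 1 library had other backgrounds, of 11.7% to 28.3% higher and 11.6% to 27.0% lower. The top of each range was the fit without shCon 1. Ranges over such fits, for every list below, are to be read beside these shares. Of 18 genes listed for the citric acid cycle, 8 were lower and the other 10 did not pass, with a median log2 fold change of -0.32. The 8 include the NADP-dependent Idh2 and the cytosolic Mdh1, while Mdh2, Idh3a and Idh3g were among those that did not pass. Idh2, the mitochondrial NADP-dependent isocitrate dehydrogenase, had 68.0, 77.3 and 72.6 CPM in shCopa 1 to 3, against 259, 198 and 194 CPM in shCon 1 to 3, at 33.5% of control (edgeR adjusted p = 0.000210). Idh3b, a subunit of the NAD-dependent enzyme, was at 37.0% (edgeR adjusted p = 0.000349) and Mdh1, the cytosolic malate dehydrogenase, at 47.4% (edgeR adjusted p = 0.00326). Suclg2, a subunit of succinyl-CoA synthetase, was at 69.8% (edgeR adjusted p = 0.00275). Over fits that left out 1 library, 4 to 9 of these 18 genes were lower. The 5 genes of the malate-aspartate and NADH shuttles had log2 fold changes of -0.29 to 0.13. The mitochondrial carriers with the smallest adjusted p among them, Slc25a12, Slc25a11 and Slc25a13, had -0.22 ± 0.09, -0.29 ± 0.15 and 0.13 ± 0.09 on that scale and did not pass (edgeR adjusted p = 0.107, 0.180 and 0.276). Over fits that left out 1 library, 0 or 1 of these 5 genes was higher and 0 or 1 lower. Both calls came without shCon 1, with Got1 at 0.26 and Slc25a12 at -0.21 (edgeR adjusted p = 0.00112 and 0.0248).

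Of 10 further PDH and pyruvate carrier genes, 2 were lower, 1 higher and 7 did not pass. Mpc1, a subunit of the mitochondrial pyruvate carrier, had 60.6, 68.2 and 69.1 CPM in shCopa 1 to 3, against 160.3, 99.4 and 94.9 CPM in shCon 1 to 3. It was lower, at 55.8% of control (edgeR adjusted p = 0.0157). It was highest in shCon 1, and the call was lost in each fit without 1 of the shCopa libraries (edgeR adjusted p = 0.0556 to 0.0698). Lipt1, which attaches lipoate to such complexes, was 1.67-fold higher (edgeR adjusted p = 0.00449), and Pdp2, a PDH phosphatase that opposes the kinases, was at 69.4% (edgeR adjusted p = 0.0198). The Pdp2 call was lost in the same fits and without shCon 2, and over all fits without 1 library 0 to 4 genes of this list were lower by edgeR.

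Of 25 other isozymes and glucose carriers, 14 were tested; 5 were higher, 3 lower and 6 did not pass. Tigar, a phosphatase that removes the activator of phosphofructokinase, had 50.9, 51.5 and 57.1 CPM in shCopa 1 to 3, against 33.8, 38.3 and 36.0 CPM in shCon 1 to 3. It was 1.48-fold higher (edgeR adjusted p = 0.00368), opposite in direction to Pfkfb3. Slc2a9, a urate carrier of the glucose transporter family, was 3.60-fold higher (edgeR adjusted p = 0.000780) and Slc2a8, an intracellular transporter, was at 46.8% of control (edgeR adjusted p = 0.00400). The low genes Slc2a2, Slc2a6 and Gapdhs also differed more than 2-fold. Slc2a2 was 2.29-fold higher (edgeR adjusted p = 0.0104), a call lost without shCopa 2 (0.0526). Slc2a6 had 1.24, 0.519 and 0.759 CPM in shCopa 1 to 3, against 0.232, 0.0859 and 0.164 CPM in shCon 1 to 3, and passed the filter on low counts only through the shCopa libraries, so its call as higher (edgeR adjusted p = 0.0115) is a description only. Gapdhs was at 46.7% (edgeR adjusted p = 0.0474), a call lost in each fit without 1 library other than shCon 1. Over fits that left out 1 library, 3 to 6 of the 14 were higher and 2 or 3 lower.

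The side branches were mixed. Of 8 pentose phosphate genes, 2 were higher and 3 lower. Pgd was 1.40-fold higher (edgeR adjusted p = 0.00799). Tkt was at 72.4% and G6pdx, the entry enzyme, at 75.0% of control (edgeR adjusted p = 0.00486 and 0.00871). The G6pdx call was lost without shCopa 1 or shCopa 2, and over fits without 1 library 1 to 3 of these genes were higher and 2 to 5 lower. Of 12 genes of the glycerol, serine and hexosamine branches, 5 were higher and 5 lower. The glycerol 3-phosphate dehydrogenases Gpd1 and Gpd1l were at 43.5% and 56.0% (edgeR adjusted p = 0.000210 and 0.000347). Uap1, which makes UDP-N-acetylglucosamine, was 1.95-fold higher (edgeR adjusted p = 0.000296). The low hexosamine gene Gfpt2 had 0.930, 1.21 and 1.21 CPM in shCopa 1 to 3, against 0.511, 0.343 and 0.370 CPM in shCon 1 to 3. Among the controls only shCon 1 reached the filter on low counts, so Gfpt2 passed it through the shCopa libraries. Its call as 2.72-fold higher (edgeR adjusted p = 0.0113), counted among the 5, is a description only, and was lost without shCopa 2 or shCopa 3. Over fits without 1 library, 3 to 5 of the 12 were higher and 3 to 6 lower. Of 17 gluconeogenesis and glycogen genes, 11 were tested, 1 was higher and 4 lower. The higher gene was the glycogen branching enzyme Gbe1 at 1.96-fold, and the lower genes with the smallest adjusted p were Ugp2, which makes UDP-glucose, at 64.9%, and the glycogen phosphorylase Pygb at 68.1% (edgeR adjusted p = 0.000276, 0.00129 and 0.00291 in that order). Over fits without 1 library, 1 or 2 of the 11 were higher and 3 to 7 lower.

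**Figure D5:**
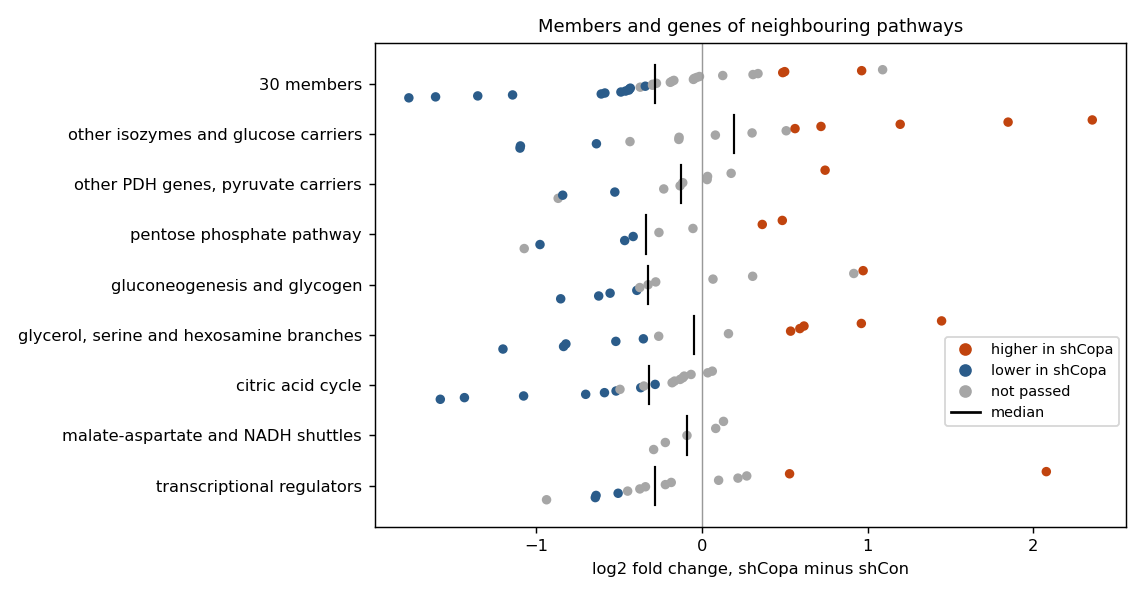
Fitted log2 fold change (shCopa minus shCon) of each tested gene in the 30-gene set and in 8 lists of neighbouring genes, coloured by call, with the median of each list as a black line. The citric acid cycle list, which includes Idh2 and Mdh1, has 8 genes called lower and a median of -0.32, close to the -0.29 of the 30 genes. Myc is the point farthest to the right among the regulators, at 2.08.

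Of 14 transcriptional regulators of the pathway, 2 were higher, 3 lower and 9 did not pass, and the factors named in the background above moved in opposite directions. Myc had 127, 143 and 141 CPM in shCopa 1 to 3, against 33.8, 35.0 and 28.7 CPM in shCon 1 to 3. It was 4.22-fold higher, with a log2 fold change of 2.08 ± 0.11 (SE; edgeR adjusted p = 4.45e-05). Hif1a, the oxygen-regulated alpha subunit, had 155, 157 and 157 CPM in shCopa 1 to 3, against 192, 228 and 246 CPM in shCon 1 to 3. It was lower, at 70.4% of control (-0.51 ± 0.11 on the log2 scale, edgeR adjusted p = 0.00942). Epas1, which encodes HIF2-alpha, was at 64.0% (edgeR adjusted p = 0.0243), a call lost without shCon 2 and in each fit without 1 of the shCopa libraries. Over fits without 1 library, 1 to 3 of the 14 were higher and 1 to 6 lower. HIF1-alpha is regulated largely through protein stability, which RNA does not measure. Of the 44 genes called in these 8 lists, 24 were called in every fit that left out 1 library, among them Myc, Hif1a, Idh2, Idh3b, Suclg2, Mdh1, Tigar, Gpd1, Gpd1l, Uap1, Gbe1, Ugp2 and Pygb.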

How the data were processed

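RNA was measured by paired-end sequencing of 3 shCopa and 3 shCon libraries. The submitters' processing notes name the build GRCm39 and the tools DESeq2, featureCounts, HTSeq, HISAT2 2.0.5 and Trimmomatic, without their order or a strand setting. The authors deposited estimated counts per Ensembl gene: 10.6% to 11.9% of values per library, zeros included, were not whole, and they were rounded here. Symbols were found for 52081 of 55414 IDs; the 3333 others held 0.201% to 0.464% of the counts. Counts were filtered with filterByExpr (minimum count 10, here 0.443 CPM), TMM-scaled and tested with edgeR 4.0.16 (quasi-likelihood F test, robust), p-values being adjusted over 14807 genes by Benjamini-Hochberg and called under 0.05. Standard errors are the fitted log2 fold change over the square root of its F. The test was also run on simulated counts, whose outcome is not given here and is not used as backing for the p-values. The labels do not say that libraries came from separate cultures; p-values reflect library-to-library spread only, which may be technical, and replicates of a group differed by more than sampling noise. Levels per length (TPM) used the longest annotated transcript. Near-identical copies were found with BLAST 2.17.0. Coordinates are given for the RefSeq promoters only, since their build differs from that of the counts. Alternatives were other scalings and filters, DESeq2 1.42.0, limma-voom (limma 3.58.1), a replicate term, length and GC offsets, and leaving out each library. The 30 genes are all named; from each list of related genes, the rule named up to 3 tested genes with the smallest adjusted p and any called gene with at least 2-fold difference. The members and lists were chosen with earlier results of these data known.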

Additional observations from a re-analysis of the deposited data

How the results depend on the processing

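Leaving out each library in turn gave 1 to 4 members higher and 6 to 18 lower, and 1778 to 4317 genes higher and 1755 to 4122 lower; the top of each range was the fit without shCon 1. A replicate block gave 2 members higher and 6 lower, with 1964 and 1939 genes (13.3% and 13.1%). Same-numbered libraries did not deviate together from their group means (r = -0.16, -0.06 and -0.11, and none correlated best with its own number). With groups of 3 libraries such correlations cannot exclude a pairing, and whether the numbers mark one is left undecided. At an adjusted p of 0.01, 1590 genes were higher and 1587 lower, with 1 member higher and 6 lower. Requiring at least 1.5-fold in place of that cut left 1 higher and 6 lower, but not the same 6. It took in Ldhb (65.6% of control, edgeR adjusted p = 0.0446) and left out Gpi1 (73.8% of control). The share of all genes under the 1.5-fold cut is not given here, so that count has no background. The sign turned only for members near 0, none of them called with all libraries: on the log2 scale Pdha1 was 0.013 with upper-quartile scaling, 0.035 with library totals and 0.029 without shCopa 1; Eno1 was 0.0056 with library totals, 0.088 with length and GC offsets, 0.086 with offsets and block, 0.083 without shCon 1 and 0.0079 without shCopa 1. Pkm was 0.000726, 0.066, 0.066 and 0.050 under the same settings as Eno1 except the last. Dlat was 0.020 with library totals, 0.050 without shCon 1 and 0.0014 without shCopa 1. Pfkfb4 was -0.0040 without shCon 1 and Pfkfb2 0.0024 without shCon 2. With length and GC offsets 4 members were higher and 16 lower, beside 21.1% and 26.9% of all genes tested. Over all fits without 1 library, the far ends for these members were -0.059 for Pdha1 (without shCopa 3), -0.15 for Eno1 and -0.14 for Pkm (without shCon 3), -0.12 for Dlat and 0.28 for Pfkfb4 (without shCon 2) and -0.44 for Pfkfb2 (without shCon 1). The cause of these shifts was not tested. The remaining fits gave 2 to 4 members higher and 9 to 13 lower, beside 9.53% to 20.3% and 10.1% to 22.5% of all genes tested. Under other transcript lengths (the coding length was added after seeing the data) isozyme shares changed in level; their differences between groups moved by more than the spread between libraries in 10 of 48 cases and none changed direction. Depth limits Slc2a3, at 3 to 14 counts per library.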

Other observations

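Several genes that share sequence or position with members had values of their own. Pgam1-ps2, a near-identical copy of Pgam1, was at 0.177, 0.389 and 0.455 CPM in shCopa 1 to 3, against 39.9, 0.816 and 0.0411 CPM in shCon 1 to 3, so that shCon 1 alone held it at a level over 1 CPM. Among the copies of Gapdh, Gm7336 (99.8% identical over 1232 bases) had 317, 349 and 343 CPM in shCopa 1 to 3, against 468, 326 and 296 CPM in shCon 1 to 3, and was likewise highest in shCon 1. Gm29427, which overlaps Pfkfb2 on the same strand, held 330% to 516% of the counts of Pfkfb2 in each library. Of the 30 members, 14 had a count that was not whole in at least 1 library, and 16 were whole in all.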
